A study of Mus musculus with 11 samples.

Results

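The response of CD41+ haematopoietic stem cells to an acute loss of platelets was read from 5 of the 11 RNA-seq libraries of the study, chosen by their labels. Marrow cells of C57BL/6 mice were sorted for c-Kit, Sca-1 and CD150 and against lineage markers and CD48, and were then split by CD41 on their surface. Controls received rabbit serum and gave 2 CD41+ libraries, and mice whose platelets were depleted 24 h earlier gave 3. The labels used here name neither the depleting agent nor the age of the mice. Each library was made from 1000 cells pooled from 3 mice, so no value belongs to a single animal. The 6 CD41- libraries, 3 from each treatment, were fitted together with them, and their response is set beside that of the CD41+ cells. The title of the study places the stem cell response to thrombocytopenia under the control of receptor tyrosine kinases, and the comparison asks which transcripts of CD41+ stem cells differ after platelets are lost.

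CD41 is the integrin alpha IIb chain, encoded by Itga2b, which forms the fibrinogen receptor of platelets together with integrin beta 3. Stem cells that carry it are known for a bias towards megakaryocytes, the cells that shed platelets. Platelets take up the cytokine thrombopoietin from the blood, so a loss of platelets leaves more of it free, and it signals through the kinase JAK2 and the transcription factor STAT5. Most stem cells rest outside the cell cycle, and cells that leave rest build ribosomes, proteasomes and mitochondrial enzymes before they replicate DNA and divide.

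Deposited gene counts summed to 3775035 and 4266784 in the control libraries and to 974196, 4984950 and 3504360 in the depleted libraries, in the order of replicates 1 to 3. Levels are in CPM, the number of a gene's reads scaled to a common library size with TMM-adjusted totals, and values in sequence are given as control replicates 1 and 2 and depleted replicates 1, 2 and 3. Log2 fold changes are depleted minus control, with the standard error (SE), from edgeR's quasi-likelihood test over 13448 genes with Benjamini-Hochberg adjustment, and a gene passed at an adjusted p under 0.05. Depleted replicate 1 was the shallowest library, in which 3 counts correspond to 3.34 CPM, against 0.588 to 0.874 CPM in the other 4. Floors of this kind cover counting error only, since PCR copies without molecular identifiers are not independent molecules. Control replicate 2 stood apart by its neutrophil transcripts, which made up 9.11% of its counts against 2.87% in control replicate 1 and 5.55%, 1.87% and 5.90% in the depleted libraries. In bulk libraries fewer cells of a type and less RNA per cell cannot be told apart.

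Transcripts of the positively sorted proteins were found in all 5 libraries, but so was Cd48, which was sorted against. Itga2b stood at 425 and 354 CPM in the controls and at 219, 246 and 170 CPM in the depleted libraries, without overlap, at a log2 fold change of -0.88 ± 0.26 that did not pass (adjusted p = 0.196). The same gene stood at 69.0 ± 26.8 CPM in control CD41- cells and at 42.2 ± 4.08 CPM in depleted CD41- cells (SD, n = 3 each). Kit, the stem cell factor receptor, was at 564, 356, 83.4, 501 and 221 CPM, so that depleted replicate 1 lay far below the others. Slamf1, which encodes CD150, was at 27.2 to 56.9 CPM and Ly6a, which encodes Sca-1, at 48.0 to 124 CPM in all 5 libraries. The stem cell genes Procr (15.6 to 42.2 CPM), Hlf (40.0 to 108 CPM), Mecom (30.0 to 110 CPM) and Fgd5 (7.21 to 22.5 CPM) were detected in each library. Cd48 was at 25.4, 54.4, 106, 37.8 and 44.0 CPM, below Slamf1 in control replicate 1 and above it in the other 4 libraries. Of the 7 genes on the gate list, which holds Cd34 and Flt3 beside the sorted proteins, 0 passed by edgeR, 1 had an unadjusted p under 0.05 (Itga2b), and 0 passed by DESeq2 or by limma voom.

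Platelet depletion left a small set of called genes in CD41+ cells. Of 13448 genes, 14 passed (0.104%), 5 of them higher (0.0372%) and 9 lower (0.0669%) in depleted mice. The 5 that rose were the cytokine feedback gene Socs2, the non-muscle myosin gene Myh10, the sialomucin gene Podxl, the ribosome-associated chaperone gene Dnajc2 and the condensin gene Smc2. The 9 that fell were the class I genes H2-T23 and H2-Q6, the thioredoxin inhibitor gene Txnip, the lysosomal protease genes Ctsf and Cpq, Ramp1, Limd2, and the non-coding genes Gm19590 and 2410006H16Rik. The 3 depleted and 2 control libraries did not overlap for any of the 14, a pattern that 13.2% of all genes tested showed in the higher and 13.8% in the lower direction. An unadjusted p under 0.05 was reached by 1646 genes (12.2%), 832 higher and 814 lower. The median log2 fold change of all genes was -0.0060.

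The number of calls depended on single libraries. No gene passed by edgeR without control replicate 1, depleted replicate 2 or depleted replicate 3, when 1301, 1712 and 1172 genes had an unadjusted p under 0.05, or in a fit of the 5 CD41+ libraries alone (1130 genes). Without control replicate 2, 0 genes were higher and 4 lower, whereas without the shallow depleted replicate 1, 39 were higher and 18 lower, all 14 among them. DESeq2 called 150 higher and 116 lower, again with all 14 among them. Leaving out CD41- libraries, which share the fit, also moved the count, to 4 higher and 4 lower without replicate 1 of the CD41- controls, and to 1 and 2 or 1 and 1 without replicate 1 or 3 of the depleted CD41- libraries. Each of the 14 kept its direction in all 19 alternatives. Because their control and depleted libraries did not overlap, leaving out a library could hardly reverse a direction, so this adds no support.

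**Figure D1:**
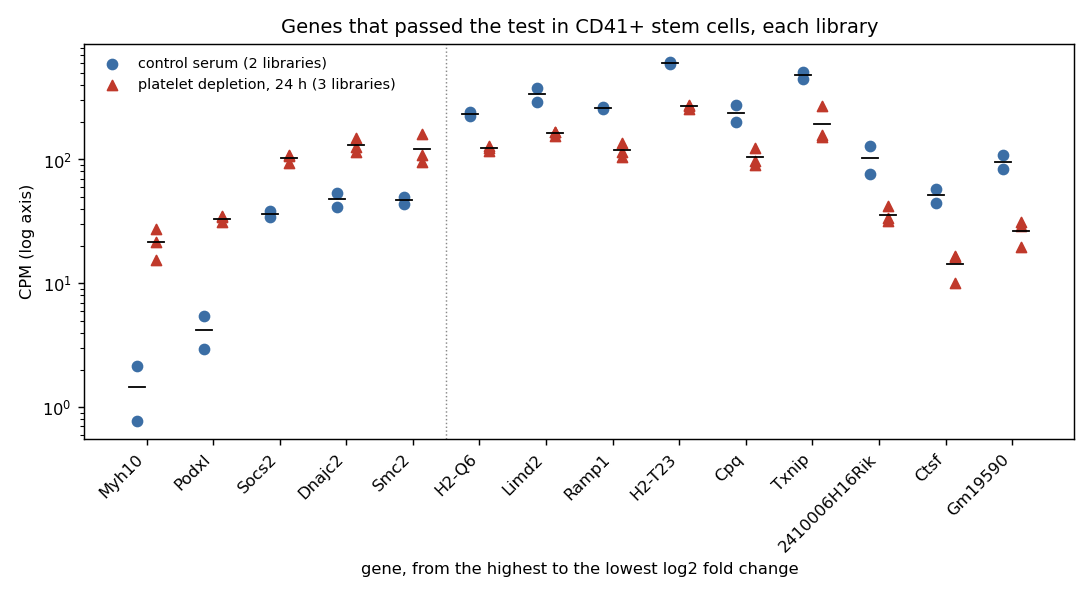
Levels of the 14 genes that passed the test in CD41+ stem cells, in CPM on a log axis. Circles are the 2 control libraries, triangles the 3 depleted libraries and short lines the group means; for each gene the circles and triangles do not overlap, and the distance is widest for Myh10 and Podxl.

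Socs2, a target of STAT5 that restrains cytokine receptor signalling (ENSMUSG00000020027, GRCm38 chromosome 10, 95385362 to 95417180, minus strand), was measured at 34.5 and 38.2 CPM in controls and at 107, 93.1 and 108 CPM after depletion. It rose 2.82-fold (log2 1.49 ± 0.20, adjusted p = 0.0228), with little spread inside either group. In CD41- cells the same gene went from 48.4 ± 4.15 to 192 ± 26.0 CPM (SD, n = 3 each; log2 1.99 ± 0.17, adjusted p = 9.49e-05). The difference between the responses of the 2 cell types was -0.50 ± 0.25 and did not pass (adjusted p = 0.838).

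The largest fold changes of the 14 belonged to a pair of genes with low control levels. Myh10 encodes non-muscle myosin IIB, which megakaryocyte precursors are known to switch off as they become polyploid (chromosome 11, 68691559 to 68816632, plus strand). It had 2.14 and 0.774 CPM in controls, from 8 and 3 counts, and 15.6, 21.6 and 27.4 CPM after depletion, from 14, 110 and 94 counts. It rose with a log2 fold change of 3.89 ± 0.57 (adjusted p = 0.0228), and in CD41- cells by 2.18 ± 0.42 (adjusted p = 0.0112). Podxl encodes podocalyxin, a sialomucin of the CD34 family found on early blood cells, endothelium and megakaryocytes (chromosome 6, 31519488 to 31563981, minus strand). It stood at 2.94 and 5.42 CPM in controls and at 31.1, 34.3 and 34.7 CPM after depletion, and it rose 7.95-fold (log2 2.99 ± 0.44, adjusted p = 0.0228). Both genes were uniformly low in controls and uniformly high after depletion. Markers of endothelial and stromal cells went the same way as this pair: 29 of 38 tested (76.3%) were positive, against 49.5% of all genes. Their median was 0.89 in CD41+ and 1.01 in CD41- cells. By edgeR 0 passed in CD41+ cells. There 7 (18.4%) did not overlap in the higher and 2 (5.26%) in the lower direction, against 13.2% and 13.8% of all genes. Their summed share of counts was 0.161% to 0.172% in controls and 0.156% to 0.224% after depletion, Lum and Sp7 were at 0 in all 5 libraries, and their part in the result was not tested.

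Dnajc2 and Smc2 are a chaperone gene and a chromosome gene. Dnajc2, whose product sits on ribosomes and folds nascent chains (chromosome 5, 21757267 to 21785251, minus strand), was at 41.2 and 53.9 CPM in controls and at 126, 115 and 148 CPM after depletion (log2 1.45 ± 0.22, adjusted p = 0.0239). It rose in CD41+ cells, whereas in CD41- cells its value was 0.69 ± 0.19 and missed the threshold (adjusted p = 0.0623). The difference between the responses did not pass either (0.76 ± 0.28, adjusted p = 0.66). Smc2, a core subunit of the condensin complexes that compact mitotic chromosomes (chromosome 4, 52439243 to 52488260, plus strand), was at 43.6 and 49.8 CPM in controls and at 95.7, 161 and 110 CPM after depletion. It rose 2.64-fold (log2 1.40 ± 0.24, adjusted p = 0.0349), with depleted replicate 2 above the other depleted libraries. Its partner Smc4 stood at 114, 115, 210, 290 and 272 CPM, without overlap, but did not pass (log2 1.17 ± 0.22, adjusted p = 0.078).

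The genes that fell included 2 class I genes of the major histocompatibility complex. H2-T23 encodes Qa-1, a non-classical class I molecule recognised by the inhibitory receptor NKG2A (chromosome 17, 36029773 to 36032855, minus strand). It was measured at 595 and 613 CPM in controls and at 257, 277 and 272 CPM after depletion, and it fell 2.25-fold (log2 -1.17 ± 0.17, adjusted p = 0.0228). H2-Q6, a Qa-2 gene on the same chromosome (35424850 to 35430055, plus strand), was at 242 and 224 CPM in controls and at 117, 129 and 123 CPM after depletion (log2 -0.92 ± 0.15, adjusted p = 0.0312). For both genes every depleted library lay near the level of the other depleted libraries, at about the same distance from the controls. Reads of H2-Q6 can be shared with near-identical Qa genes, and A930015D03Rik lies on the other strand of H2-T23, so the split between these genes is uncertain.

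Txnip, Ctsf and Cpq serve redox control and protein breakdown. Txnip binds thioredoxin and restrains glucose uptake, and its product is tied to stem cell rest (chromosome 3, 96557957 to 96561883, plus strand). It stood at 510 and 447 CPM in controls and at 271, 153 and 157 CPM after depletion, and it fell 2.5-fold (log2 -1.32 ± 0.23, adjusted p = 0.0454). Depleted replicate 1 lay between the controls and the other 2 depleted libraries. Ctsf, the gene of the lysosomal protease cathepsin F (chromosome 19, 4855130 to 4860918, plus strand), was at 58.3 and 44.4 CPM in controls and at 10.0, 16.7 and 16.3 CPM after depletion (log2 -1.77 ± 0.29, adjusted p = 0.0312). Cpq, the gene of a carboxypeptidase (chromosome 15, 33083129 to 33594552, plus strand), was at 273 and 202 CPM in controls and at 125, 97.0 and 90.6 CPM after depletion (log2 -1.21 ± 0.20, adjusted p = 0.0312). All 3 fell, and for each the gap between the groups was wider than the spread inside the depleted group.

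Ramp1, which pairs with the calcitonin receptor-like receptor to bind the neuropeptide CGRP (chromosome 1, 91179822 to 91225196, plus strand), fell from 255 and 266 CPM to 135, 115 and 105 CPM (log2 -1.15 ± 0.18, adjusted p = 0.0311). Limd2 (chromosome 11, 106156256 to 106160860, minus strand) was at 294 and 378 CPM in controls and at 156, 168 and 167 CPM after depletion (log2 -1.04 ± 0.16, adjusted p = 0.0239). The remaining 2 are non-coding. Gm19590, a long intergenic RNA (chromosome 5, 75833035 to 75835645, minus strand), fell from 109 and 83.6 CPM to 31.1, 29.0 and 19.5 CPM (log2 -1.89 ± 0.26, adjusted p = 0.0228). 2410006H16Rik, a transcript that spans the small nucleolar RNA genes Snord49a, Snord49b and Snord65, fell from 128 and 76.9 CPM to 42.3, 32.0 and 33.5 CPM (log2 -1.54 ± 0.25, adjusted p = 0.0311). No source used here gives the strand setting of the counting, so Limd2, Cpq, Smc2 and Txnip, which overlap other gene models on the opposite strand, are less certain than the rest.

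The bases upstream of 3 called genes are shown because they hold short motifs that recur upstream of the mitosis list (Smc2) and of the class I and II list (H2-Q6), and because Txnip, of neither list, holds 2 copies of one of them. RefSeq promoter windows (GRCm38.p6) matched 9 of the 14 called genes. Both strands were searched for CCAAT, for the cell cycle element TTTGAA, for the E-box CACGTG, for the interferon motif GAAANNGAA and for the STAT motif TTCNNNGAA, where N is any base and the last 2 can share bases with TTTGAA. Capitals mark CCAAT or its reverse complement ATTGG and, in Smc2, also TTTGAA as TTCAAA, while 2 matches to the interferon motif in Smc2 are left in lower case, each sequence running 5′ to 3′ on the gene's strand and ending at the base before its RefSeq start.
Smc2 (chr4:52438971-52439220, plus strand): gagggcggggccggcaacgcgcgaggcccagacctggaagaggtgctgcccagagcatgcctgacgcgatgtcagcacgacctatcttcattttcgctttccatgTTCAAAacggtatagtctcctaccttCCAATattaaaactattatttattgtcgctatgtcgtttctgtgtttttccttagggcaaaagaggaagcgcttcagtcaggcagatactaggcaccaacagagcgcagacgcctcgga
H2-Q6 (chr17:35424600-35424849, plus strand): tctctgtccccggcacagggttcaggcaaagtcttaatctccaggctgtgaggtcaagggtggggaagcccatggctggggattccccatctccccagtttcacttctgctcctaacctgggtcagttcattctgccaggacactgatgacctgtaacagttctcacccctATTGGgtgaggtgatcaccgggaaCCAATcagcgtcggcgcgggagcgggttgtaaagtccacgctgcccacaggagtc
Txnip (chr3:96557707-96557956, plus strand): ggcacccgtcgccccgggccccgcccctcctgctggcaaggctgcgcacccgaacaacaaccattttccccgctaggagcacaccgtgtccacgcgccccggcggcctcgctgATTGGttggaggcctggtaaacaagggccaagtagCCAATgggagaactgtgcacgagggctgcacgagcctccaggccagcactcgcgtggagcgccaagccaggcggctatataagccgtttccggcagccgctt
Of all 32851 windows of 250 bases, 33.8% held CCAAT, against 17 of the 18 matched class I and II genes (94.4%) and 39 of the 57 matched mitosis genes (68.4%). TTTGAA was in 16% of all windows and in 20 of 57 mitosis windows (35.1%), and the interferon motif in 7.13% of all windows and in 25 of 55 windows of interferon-stimulated genes (45.5%). CACGTG was in 6.02% and the STAT motif in 7.02% of all windows. A match describes letters in these windows and is neither a bound site nor a cause.

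Mitosis genes had positive fold changes almost throughout. Of 68 tested, 67 were positive, 42 (61.8%) did not overlap in the higher and 0 in the lower direction, and the median was 0.58, against 13.2%, 13.8% and -0.0060 over all genes. By edgeR 1 passed (Smc2) and 37 had an unadjusted p under 0.05, while DESeq2 called 13 and limma voom 0. Cenpe, the motor that attaches chromosomes to spindle fibres, was at 6.68, 2.58, 15.6, 44.1 and 48.9 CPM (log2 3.01 ± 0.57, adjusted p = 0.076). Kif20b, a kinesin of cell division, was at 18.2, 20.4, 57.8, 60.4 and 59.1 CPM (log2 1.62 ± 0.38, adjusted p = 0.142), and Kif15, a spindle kinesin, at 23.5, 21.7, 33.4, 60.4 and 62.6 CPM (1.24 ± 0.30, adjusted p = 0.156). In each case all depleted libraries exceeded both controls, and replicate 1 was the lowest of them, though only slightly for Kif20b. Members named here and below were mostly picked by a small p in this comparison, so such a gap adds no support for a list. The list took 0.732% and 0.721% of counts in controls and 0.952%, 1.25% and 1.05% after depletion.

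The mitosis response of CD41- cells was larger and began from a lower control level. There 56 of the 68 genes passed, all higher, with a median of 1.51, and the list took 0.346% to 0.425% of counts in controls and 1.04% to 1.1% after depletion. After depletion the shares of the 2 cell types thus lay in overlapping ranges, whereas in controls both CD41+ libraries lay above all 3 CD41- libraries. Gene by gene, the difference between the responses passed for 0 of 13448 genes (0%) by edgeR, with 825 at an unadjusted p under 0.05, and for 11 higher and 24 lower by DESeq2 and 0 by limma voom. With libraries of consecutive title numbers fitted as couples in a replicate block, an alternative added after the data were seen, 2 genes passed (0.0149%). These were Malat1, an abundant nuclear RNA, and Gm37376, which lies within it on the other strand (adjusted p = 0.0251 each), so their reads may not be separate. Malat1 was at 366, 190, 284, 83.9 and 282 CPM in CD41+ libraries, where its groups overlapped, and at 2702, 2979 and 1455 CPM in control and 477, 151 and 329 CPM in depleted CD41- libraries. Of the 10 genes with the smallest p for that difference, 8 act in cell division or nucleotide supply, all with smaller values in CD41+ cells (adjusted p = 0.304 each). Cdca8, a subunit of the chromosomal passenger complex, was at 164 and 175 CPM in control and at 264, 261 and 248 CPM in depleted CD41+ cells (log2 0.60 ± 0.17), against 66.9 and 232 CPM as means of CD41- cells (1.79 ± 0.16). Ccnb2, a mitotic cyclin gene, had 0.50 ± 0.19 in CD41+ and 1.78 ± 0.17 in CD41- cells. Rrm1, a subunit gene of ribonucleotide reductase, had 0.19 ± 0.16 and 1.32 ± 0.15, and the cohesin regulator gene Cdca5 -0.27 ± 0.26 and 1.54 ± 0.24.

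Genes of DNA replication and of the G1 phase showed less. Of 50 replication and nucleotide genes 40 were positive, with a median of 0.13 in CD41+ and 0.80 in CD41- cells. Without overlap were 12 (24%) in the higher and 1 (2%) in the lower direction, against 13.2% and 13.8% of all genes. By edgeR 0 passed in CD41+ cells and 3 had an unadjusted p under 0.05, with 0 by DESeq2 and limma voom, while 25 passed in CD41- cells. Rfc4, a clamp loader subunit gene, was at 137, 134, 214, 206 and 202 CPM (log2 0.61 ± 0.25, adjusted p = 0.352), and Dtl, which targets the licensing factor Cdt1 for destruction, at 186, 201, 81.2, 180 and 130 CPM (-0.55 ± 0.26, adjusted p = 0.428). Of 30 genes for G1 and S phase cyclins, their kinases and E2F factors, 15 were positive, with a median of 0.018. The cyclin gene Ccna2, at 468, 471, 822, 608 and 488 CPM, had a log2 fold change of 0.44 ± 0.21 (adjusted p = 0.423) in CD41+ and 1.51 in CD41- cells (adjusted p = 0.00105), and E2f2 had -1.50 ± 0.49 (adjusted p = 0.242).

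**Figure D2:**
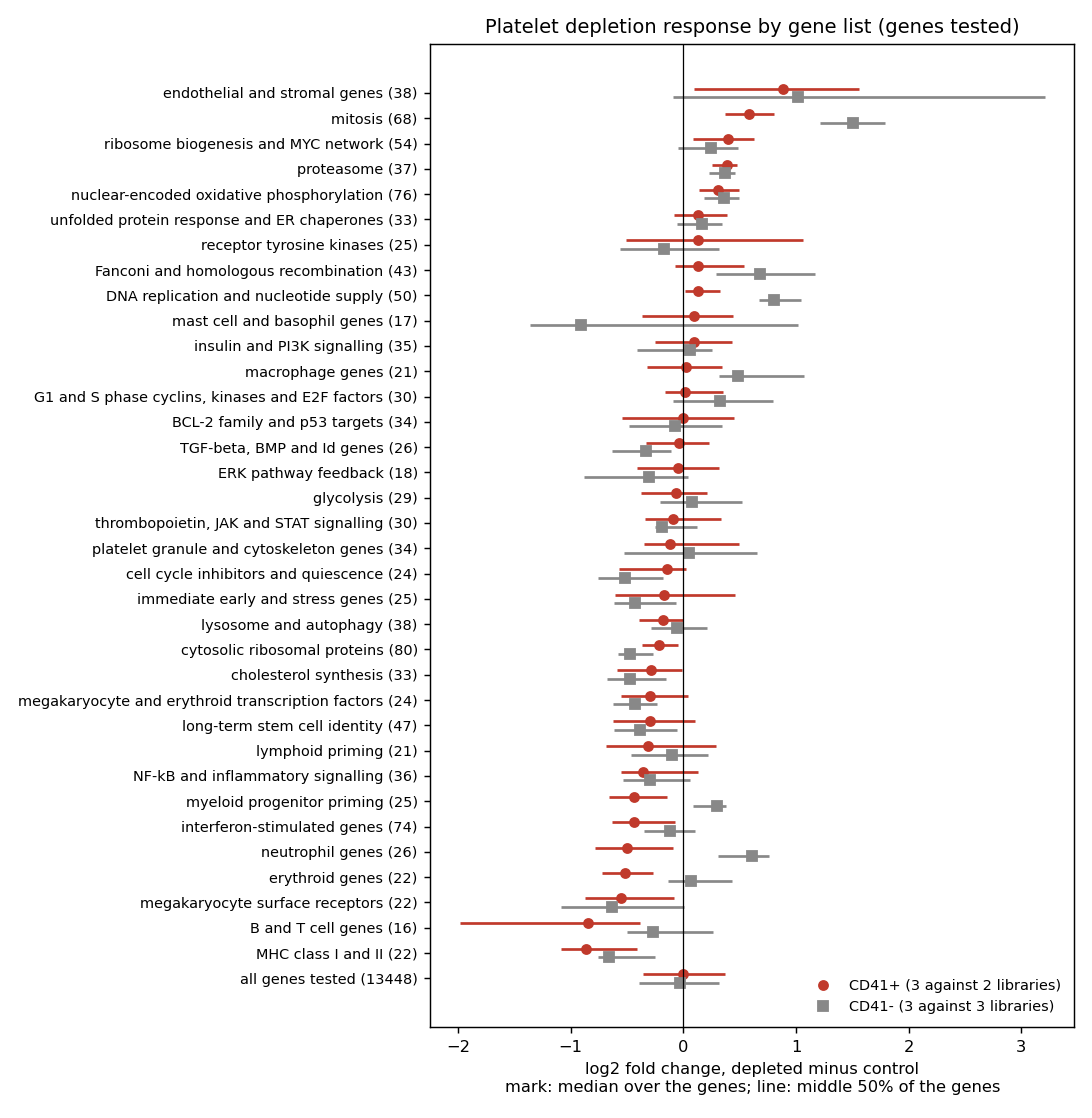
Median log2 fold change (mark) and middle 50% of genes (line) for the 35 lists with at least 15 genes tested, depleted minus control, in CD41+ (circles) and CD41- cells (squares), with all genes at the bottom. Mitosis stands at 0.58 and 1.51, the class I and II list at -0.86 and -0.66, and all genes at -0.0060 and -0.028.

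Genes for building and clearing proteins leaned higher. Of 37 proteasome genes 27 (73.0%) did not overlap in the higher direction, against 13.2% of all genes. In the list 35 were positive, with a median of 0.39 in CD41+ and 0.37 in CD41- cells. None passed by edgeR, 17 had an unadjusted p under 0.05, DESeq2 called 4 and limma voom 0. Psmd12, of the lid, was at 150, 187, 279, 285 and 308 CPM (log2 0.79 ± 0.19, adjusted p = 0.156), and Psmc1, an ATPase subunit gene, at 190, 201, 280, 328 and 351 CPM (0.71 ± 0.19, adjusted p = 0.167). For both genes the 3 depleted libraries stood close together above the controls. The list took 0.877% and 0.814% of counts in controls and 1.13%, 1.11% and 1.14% after depletion.

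Of 54 ribosome biogenesis and MYC network genes 24 (44.4%) did not overlap in the higher and 0 in the lower direction. Shares of all genes were 13.2% and 13.8%. In the list 42 were positive, with a median of 0.39 (0.24 in CD41- cells). By edgeR 0 passed, 16 had an unadjusted p under 0.05, DESeq2 called 4 and limma voom 0. Ncl, the nucleolin gene, was at 404 and 466 CPM in controls and at 849, 1039 and 1047 CPM after depletion (log2 1.17 ± 0.23, adjusted p = 0.0835). Npm1, the gene of another abundant nucleolar protein, was at 1330, 1159, 2616, 1784 and 2140 CPM (0.81 ± 0.21, adjusted p = 0.164). Every depleted library exceeded both controls for this pair. Myc itself was at 356, 314, 365, 328 and 295 CPM, and its groups overlapped (-0.03 ± 0.18). The structural genes of the cytosolic ribosome did not follow: 15 of 80 were positive, the median was -0.22, 0 passed by edgeR, 12 had an unadjusted p under 0.05 (1 higher), and the median was 0.059 without control replicate 1.

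Of 76 nuclear genes of oxidative phosphorylation 27 (35.5%) did not overlap in the higher direction, against 13.2% of all genes. The list had 66 positive and a median of 0.31 (0.36 in CD41- cells). None passed by edgeR, 20 had an unadjusted p under 0.05 in the higher and 1 in the lower direction, and DESeq2 called 2 higher and 1 lower. Uqcrq, of complex III, was at 94.9, 113, 152, 166 and 208 CPM (log2 0.77 ± 0.22, adjusted p = 0.193) and Sdhb, of complex II, at 252, 233, 323, 352 and 391 CPM (0.55 ± 0.17, adjusted p = 0.215). Cox7a2l, whose product helps join respiratory complexes, went against the list, at 347, 315, 237, 186 and 220 CPM (-0.63 ± 0.17, adjusted p = 0.173). Of 9 mitochondrially encoded genes 8 were positive, with a median of 0.42, and they took 1.56% to 2.38% of counts in controls and 2.09% to 3.18% after depletion, so the groups overlapped. Among glycolysis genes 14 of 29 were positive, and Aldoc, an aldolase gene, was at 55.8, 35.4, 5.56, 12.5 and 12.2 CPM (-2.06 ± 0.41, adjusted p = 0.0837).

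**Figure D3:**
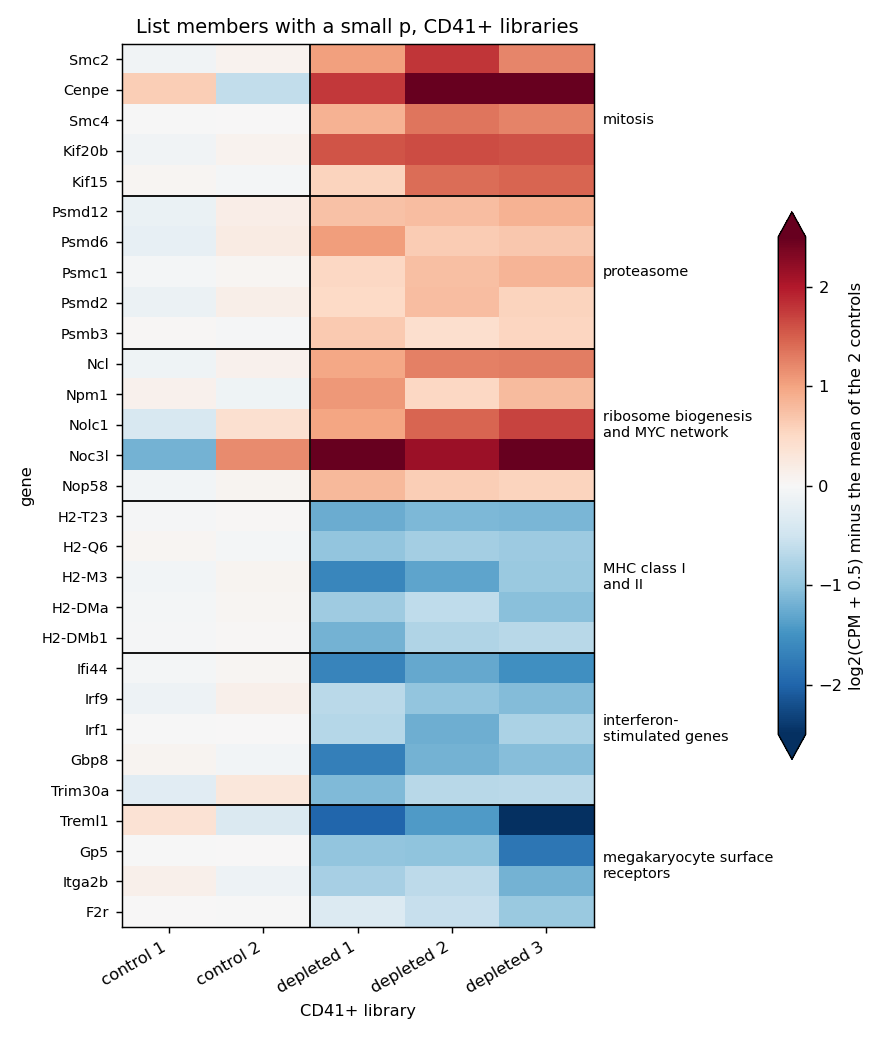
Level of members with a small p of 6 lists (up to 5 of each) in each CD41+ library, as log2(CPM + 0.5) minus the mean of the 2 controls. Red is above and blue below the controls, and colours end at 2.5 in either direction; the 3 depleted columns are red for mitosis, proteasome and ribosome biogenesis members and blue for class I and II, interferon and megakaryocyte receptor members. The members were chosen by a small p in this same comparison, so the shared colours follow from the choice and add no support.

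Antigen presentation and interferon genes leaned lower. Of 22 class I and II genes 21 had negative fold changes and 16 (72.7%) did not overlap in the lower direction, against 13.8% of all genes, with a median of -0.86 in CD41+ and -0.66 in CD41- cells. By edgeR 2 passed and 11 had an unadjusted p under 0.05, DESeq2 called 4 and limma voom 1. H2-M3, a class I gene whose product presents formylated peptides, was at 57.2, 63.0, 18.9, 23.9 and 31.5 CPM (log2 -1.24 ± 0.25, adjusted p = 0.0835). H2-DMa, which helps to load class II molecules, was at 191, 205, 107, 127 and 96.1 CPM (-0.84 ± 0.18, adjusted p = 0.0949). In both cases the controls lay close together above all depleted libraries. The summed share of the list overlapped all the same, at 1.79% and 1.34% of counts in controls and 1.28%, 1.32% and 1.38% after depletion. Its most abundant members include B2m, the gene of the shared light chain, at 9106, 5661, 7437, 6331 and 7435 CPM (-0.06 ± 0.19), and the groups of this gene overlapped.

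Of 74 interferon-stimulated genes 25 (33.8%) did not overlap in the lower and 3 in the higher direction, against 13.8% and 13.2% of all genes. In the list 59 were negative, with a median of -0.44 in CD41+ and -0.12 in CD41- cells. With edgeR 0 passed, 17 had an unadjusted p under 0.05 in the lower and 3 in the higher direction, DESeq2 called 5 lower and 2 higher, and limma voom 0. Ifi44 was at 140 and 149 CPM in controls and at 45.6, 59.2 and 49.5 CPM after depletion (log2 -1.47 ± 0.29, adjusted p = 0.0835). The transcription factor genes Irf9 (163, 194, 111, 89.4 and 84.2 CPM; -0.93 ± 0.21, adjusted p = 0.127) and Irf1 (94.9, 96.2, 57.8, 41.0 and 55.4 CPM; -0.91 ± 0.24, adjusted p = 0.164) shared this pattern. Among 36 genes of NF-kB and inflammatory signalling 25 were negative, with a median of -0.36, and 0 passed by edgeR against 7 lower at an unadjusted p under 0.05 and 3 lower by DESeq2. Nfkbia, the gene of the inhibitor of NF-kB and itself its target, was at 239, 249, 136, 122 and 158 CPM (-0.82 ± 0.18, adjusted p = 0.111). Tnfaip3, another feedback gene of this pathway, was at 20.6, 19.9, 3.34, 5.49 and 8.16 CPM (-1.74 ± 0.45, adjusted p = 0.164), against -0.08 in CD41- cells.

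Genes of megakaryocyte surface receptors leaned lower. Of 22 surface receptor genes 10 (45.5%) did not overlap in the lower and 0 in the higher direction. Shares of all genes were 13.8% and 13.2%. The list had 17 negative, with a median of -0.56 in CD41+ and -0.64 in CD41- cells. None passed by edgeR, 7 had an unadjusted p under 0.05, all lower, DESeq2 called 3 lower and limma voom 0. Treml1, a receptor stored in platelet granules, was at 42.0, 25.0, 7.79, 11.8 and 4.37 CPM (log2 -2.05 ± 0.50, adjusted p = 0.156). Gp5, of the receptor for von Willebrand factor, was at 81.8, 83.1, 41.2, 40.8 and 23.3 CPM (-1.25 ± 0.33, adjusted p = 0.167), and F2r, the thrombin receptor gene, at 429, 421, 337, 285 and 224 CPM (-0.60 ± 0.20, adjusted p = 0.257). All depleted libraries lay below both controls for these 3 genes. The list took 0.313% and 0.244% of counts in controls and 0.188%, 0.216% and 0.171% after depletion.

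Platelet granule and cytoskeleton genes were divided. Of 34 tested 16 were positive. Without overlap were 6 (17.6%) in the higher and 4 (11.8%) in the lower direction, near the 13.2% and 13.8% of all genes. The median of -0.12 became 0.28 without control replicate 2. No member passed by edgeR, 3 were higher and 4 lower at an unadjusted p under 0.05, and DESeq2 called 3 lower. Plek, the gene of pleckstrin, the main substrate of protein kinase C in platelets, was at 328, 311, 72.3, 93.9 and 101 CPM (log2 -1.82 ± 0.37, adjusted p = 0.0949). Pf4, the gene of the granule chemokine platelet factor 4, was at 286 and 71.0 CPM in controls, which differed widely, and at 33.4, 58.8 and 36.1 CPM after depletion (-2.03 ± 0.48, adjusted p = 0.156). On the other side Clu, which encodes the granule protein clusterin, was at 76.7, 63.0, 112, 121 and 127 CPM (0.78 ± 0.29, adjusted p = 0.309). Myh9, the gene of non-muscle myosin IIA, was at 14.4, 12.9, 18.9, 32.7 and 31.5 CPM (1.06 ± 0.35, adjusted p = 0.247).

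Transcription factor genes of megakaryocytes and erythroid cells had 17 of 24 negative fold changes, with a median of -0.30. None passed by edgeR, 2 were lower and 1 higher at an unadjusted p under 0.05, and DESeq2 and limma voom called 0. Nfe2, which drives the late megakaryocyte programme, was at 646, 604, 476, 459 and 354 CPM (log2 -0.54 ± 0.17, adjusted p = 0.216), and it passed in CD41- cells (-0.67, adjusted p = 0.0282). Of 22 erythroid genes 12 (54.5%) did not overlap in the lower direction, against 13.8% of all genes. The list had 20 negative, with a median of -0.52 in CD41+ and 0.072 in CD41- cells. By edgeR 0 passed (1 lower at an unadjusted p under 0.05, 0 by DESeq2 and limma voom). Slc4a1, the gene of the red cell anion exchanger, was at 38.2, 37.9, 8.90, 8.82 and 7.28 CPM (-2.20 ± 1.09, adjusted p = 0.459). Erythroid transcripts took 0.525% to 0.702% of counts in controls and 0.463% to 0.561% after depletion, none of their 25 markers was at 0 in all 5 libraries, and their part in the lower values of megakaryocyte and erythroid genes was not tested.

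Signalling downstream of thrombopoietin showed Socs2 as its single called gene. Of 30 genes of the thrombopoietin, JAK and STAT list 13 were positive and the median was -0.093. Cish, another STAT5 target with an inhibitory role, was at 63.3, 36.6, 101, 82.9 and 79.2 CPM (0.80 ± 0.28, adjusted p = 0.29). All depleted libraries exceeded both controls for Cish as for Socs2, but the value of Cish did not pass.

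Receptor tyrosine kinase genes, the class named in the study's title, had 13 of 25 members positive and a median of 0.13, which was -0.15 without depleted replicate 3 and 0.55 without control replicate 2. EdgeR called 0, 1 was higher and 1 lower at an unadjusted p under 0.05, and DESeq2 and limma voom called 0. Insr, the insulin receptor gene, was at 2.14 and 4.64 CPM in controls and at 12.2, 7.25 and 19.2 CPM after depletion, without overlap but from few counts (log2 1.91 ± 0.59, adjusted p = 0.215). Erbb3, a receptor of the epidermal growth factor family, was at 19.8, 17.0, 7.79, 8.43 and 2.33 CPM (-1.61 ± 0.52, adjusted p = 0.24). The angiopoietin receptor gene Tek was at 105, 77.9, 22.3, 86.6 and 61.2 CPM and its groups overlapped (-0.61 ± 0.38, adjusted p = 0.546).

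Insulin and PI3K genes had 19 of 35 positive, with a median of 0.091, and 0 passed by edgeR against 4 higher and 2 lower at an unadjusted p under 0.05. Pik3ip1, an inhibitor of PI3K, was at 142, 134, 57.8, 71.5 and 74.3 CPM (log2 -1.0 ± 0.25, adjusted p = 0.156), was called lower by DESeq2 and passed in CD41- cells (-1.25, adjusted p = 0.00683). Feedback genes of the ERK pathway had 7 of 18 positive and a median of -0.045, and 0 passed by edgeR (1 higher and 2 lower at an unadjusted p under 0.05, 1 lower by DESeq2). Dusp2, a phosphatase gene for ERK, was at 58.0, 60.9, 11.1, 27.4 and 23 CPM (-1.44 ± 0.39, adjusted p = 0.173). Of 25 immediate early and stress genes 15 were negative and 0 passed by edgeR, with 4 lower and 1 higher at an unadjusted p under 0.05 and 2 lower and 1 higher by DESeq2. Jun stood at 42.0, 37.2, 16.7, 18.8 and 23 CPM (-0.99 ± 0.26, adjusted p = 0.167) and the chaperone gene Hsp90aa1 at 320, 352, 743, 505 and 630 CPM (0.90 ± 0.24, adjusted p = 0.167).

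The lists not described so far had 0 called genes by edgeR in CD41+ cells. Their medians were 0.13 for chaperones of the endoplasmic reticulum (33 genes, 3 at an unadjusted p under 0.05), 0.13 for Fanconi and homologous recombination genes (43 genes, 6), -0.039 for TGF-beta and Id genes (26 genes, 3), -0.0012 for BCL-2 family and p53 target genes (34 genes, 6), 0.21 for imprinted genes (13 genes, 1) and -0.31 for lymphoid priming genes (21 genes, 1). DESeq2 called 3 higher in the Fanconi list and 1 lower in each of the BCL-2 and lymphoid lists. Some of these medians changed sign when 1 library was left out. Lymphoid priming became 0.36 without control replicate 2, and imprinted genes -0.19 without depleted replicate 2. TGF-beta and Id genes became 0.11 without depleted replicate 1, and BCL-2 and p53 target genes 0.078 without control replicate 1.

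Genes of stem cell identity leaned lower by small steps, while those of rest were near all genes in library overlap. Among 24 cell cycle inhibitors and quiescence genes 17 were negative, and 4 (16.7%) did not overlap in the lower and 1 (4.17%) in the higher direction. The shares of all genes were 13.8% and 13.2%. Txnip fell, 2 members were lower at an unadjusted p under 0.05 by edgeR, and the median of -0.15 became 0.034 without depleted replicate 2. Tsc22d3, a glucocorticoid target, was at 639, 444, 230, 292 and 258 CPM (log2 -1.05 ± 0.29, adjusted p = 0.174). Of 47 genes of long-term stem cell identity 33 were negative, 13 (27.7%) without overlap in the lower and 2 in the higher direction, with a median of -0.30. In this list Socs2 rose, 0 were called lower by edgeR against 9 at an unadjusted p under 0.05, and DESeq2 called 2 higher and 3 lower. Pdzk1ip1, a membrane protein gene used to mark stem cells, was at 177, 93.9, 55.6, 57.8 and 53 CPM, just short of the threshold (-1.28 ± 0.23, adjusted p = 0.0513). Sult1a1, a sulfotransferase gene, was at 66.8, 57.8, 33.4, 37.0 and 32.3 CPM (-0.86 ± 0.23, adjusted p = 0.171), and Ifitm1 at 548, 387, 690, 800 and 989 CPM (0.82 ± 0.22, adjusted p = 0.167).

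Lysosomal and lipid genes also leaned lower. Of 38 lysosome and autophagy genes 11 (28.9%) did not overlap in the lower and 4 (10.5%) in the higher direction. Shares of all genes were 13.8% and 13.2%. The list had 28 negative, with a median of -0.18. By edgeR 0 passed, 7 were lower at an unadjusted p under 0.05 and 2 by DESeq2. Lamp2, a lysosomal membrane protein gene, was at 647, 914, 344, 434 and 431 CPM (log2 -0.95 ± 0.21, adjusted p = 0.108), and Map1lc3b, which labels autophagosomes, at 479, 495, 255, 329 and 357 CPM (-0.63 ± 0.17, adjusted p = 0.167). Both controls exceeded all depleted libraries for this pair. Among 33 cholesterol genes 11 (33.3%) did not overlap in the lower direction, against 13.8% of all genes. The list had 25 negative, with a median of -0.29. By edgeR 0 passed, against 6 lower and 1 higher at an unadjusted p under 0.05. Hmgcs1, an early enzyme gene of the pathway, was at 109, 121, 77.9, 56.6 and 48.1 CPM (-0.95 ± 0.30, adjusted p = 0.233), while Abca1, which exports cholesterol, was at 3.47, 2.58, 10.0, 7.06 and 10.8 CPM (1.59 ± 0.45, adjusted p = 0.184).

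Genes called in CD41+ or in CD41- cells mostly had the same sign in the other cell type. In CD41- cells 309 genes were higher (2.3%) and 120 lower (0.892%) after depletion. All 14 genes called in CD41+ cells had the same sign there and 12 of them passed there, which is 2.8% of the 429 CD41- calls; the other two were Dnajc2 and Cpq. Of the 309 genes higher in CD41- cells 279 (90.3%) were positive in CD41+ cells, with medians of 1.18 and 0.42, and of the 120 lower ones 115 (95.8%) were negative, with medians of -1.11 and -0.79. Over all 13448 genes tested, 6657 (49.5%) were positive and 6783 negative in CD41+ cells. DESeq2 called 535 higher and 316 lower in CD41- cells, and single libraries moved these calls: 166 higher and 49 lower without control replicate 3, 146 and 29, 199 and 57, or 143 and 26 without depleted replicate 1, 2 or 3, and 73 lower without control replicate 1. The 309 and 120 were chosen by their CD41- values, which makes their CD41- medians the more extreme of each pair by selection. Across the 10684 genes that averaged 5 CPM or more in CD41+ libraries the 2 responses had a Pearson r of 0.355 and a Spearman rho of 0.384, as a description over genes, which are not independent replicates. The 2 responses come from different control libraries, although the labels do not say whether CD41+ and CD41- cells came from the same mice. Zfp608 (4.81, 3.10, 13.4, 28 and 21.6 CPM; log2 2.47 ± 0.47, adjusted p = 0.078) and Ubqln2 (0.802, 0.774, 7.79, 7.06 and 17.5 CPM; 3.76 ± 0.74, adjusted p = 0.0835) had opposite signs in CD41- cells (-0.85 and -0.71), with a difference that did not pass (adjusted p = 0.304 each).

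**Figure D4:**
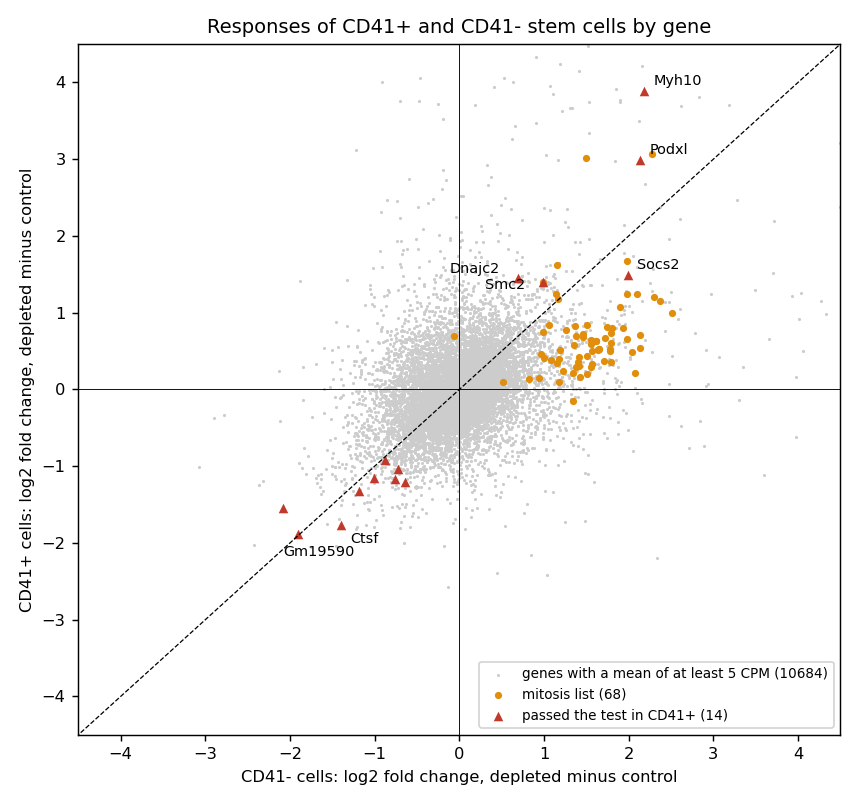
Log2 fold change of each gene in CD41+ cells (vertical) against CD41- cells (horizontal), depleted minus control, for the 10684 genes that averaged 5 CPM or more, of which 24 lie outside the plotted range of 4.5. Triangles are the 14 genes called in CD41+ cells, all in the quadrants of shared sign; orange points are the 68 mitosis genes, most of them below the dashed line of equal change.

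Among markers of other cells, the medians of neutrophil, myeloid progenitor and B and T cell genes changed sign when control replicate 2 was left out. Neutrophil genes took 2.87% and 9.11% of counts in controls and 1.87% to 5.90% after depletion, none of the 26 was at 0 in all 5 libraries, and the median of -0.50 became 0.74 without control replicate 2. Myeloid progenitor genes had -0.44 and 0.65 without that library, and B and T cell genes -0.85 and 0.22. Macrophage genes took 0.147% to 0.182% of counts in controls and 0.114% to 0.163% after depletion, with none of the 24 at 0 throughout. Mast cell and basophil genes took 0.0968% to 0.0983% and 0.0616% to 0.111%, and 5 of 24 (Cma1, Mcpt4, Mrgprb2, Tpsab1 and Tpsb2) were at 0 in all 5 libraries. B and T cell genes took 0.0318% to 0.0565% and 0.0231% to 0.0345%, with none of the 27 at 0 throughout. Of these lists 0 members passed by edgeR in CD41+ cells, with 0 to 3 in a direction at an unadjusted p under 0.05. The medians that kept their sign in all 19 alternatives included mitosis (0.52 to 0.64), proteasome (0.36 to 0.44), ribosome biogenesis (0.33 to 0.45), class I and II (-0.92 to -0.58), interferon-stimulated (-0.67 to -0.27) and megakaryocyte surface receptor genes (-0.69 to -0.43). A kept sign was common among the lists and does not set these apart. G1 and S phase genes, with a median of only 0.018, also kept it (0.010 to 0.14). So did Fanconi (0.052 to 0.29), erythroid (-0.66 to -0.36) and endothelial and stromal genes (0.61 to 1.255).

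**Figure D5:**
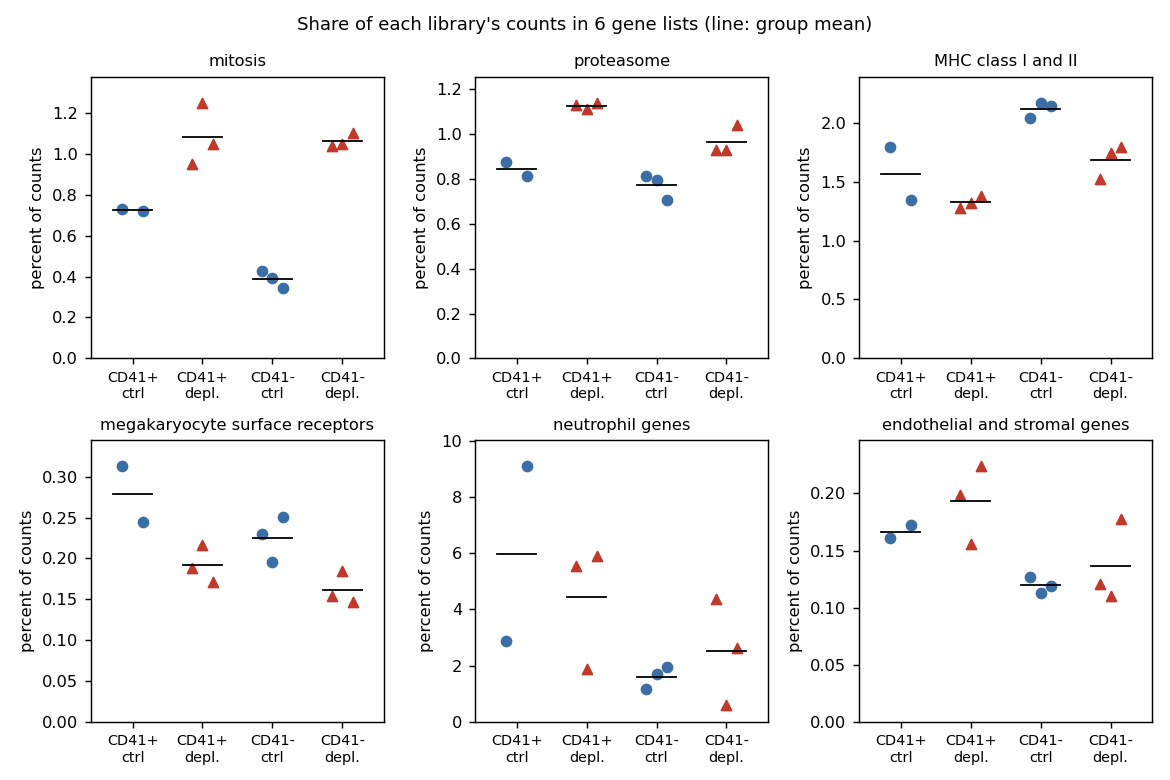
Percent of each library's counts in 6 gene lists, with control libraries as circles, depleted libraries as triangles and group means as lines. Mitosis and proteasome shares of CD41+ cells are higher in all 3 depleted than in both control libraries, megakaryocyte receptor shares are lower, and neutrophil shares range from 1.87% to 9.11% across the CD41+ libraries.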

How the data were processed

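RNA of 1000 sorted cells per library was copied from a poly-dT primer with template switching, amplified and tagmented, per the labels' protocols. Per the submitters' processing notes, the authors ran cutadapt, STAR and HTSeq 0.6.1p1; the builds listed there are GRCm38 and mm10. No source used here gives the strand setting or annotation. The deposited counts per gene were used as they stand; names came from GENCODE M21, with 49326 of 49585 entries named.

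All 11 libraries were fitted by edgeR 4.0.16 (quasi-likelihood, robust, TMM), run under R 4.3.3 with each group as 1 coefficient. The filter filterByExpr (count of 10, total of 15) retained 13448 genes holding 99.7% of counts, and p-values were adjusted by Benjamini-Hochberg at 0.05. The SE was taken as the size of the log2 fold change divided by the root of its F. The spread behind the p-values was estimated over all 11 libraries, each a pool of 3 mice and treated as independent. The p-values of the CD41+ response thus rest in part on the spread of CD41- libraries, which may share mice with them. The fit was tested on simulated data. Titles number CD41+ and CD41- libraries consecutively without saying that they share mice. In all 5 such couples the deviations from the group means correlated positively over 10810 genes (r from 0.102 to 0.432). The control CD41+ libraries are a single pair, so their deviations are mirror images and their couples (r = 0.11 and 0.102) are not independent. The depleted couples had r of 0.322, 0.432 and 0.278, but deviations within a group also depend on each other. These r therefore do not settle whether mice were shared. A fit of the difference with all consecutive couples as a block was added after the data were seen. The members and the 38 gene lists were chosen with earlier results of these data known, so a list is described by counts and medians, without a test of its own. Named genes were those behind the gate, called genes filled up to 12 per direction by p (mean of at least 5 CPM, no gene models), 5 members per list by p, and for the difference of responses the 10 smallest p. B2m, Myc, Procr, Hlf, Mecom, Fgd5, Malat1 and Gm37376 fall outside this rule and were chosen after their values were seen; 1 member that the rule names is not reported here. Alternatives covered normalisation, filters, DESeq2 1.42.0, limma 3.58.1 voom, fits of the groups compared only, and leaving out each library. Figures were drawn with matplotlib 3.10.9.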

Additional observations from a re-analysis of the deposited data

How the results depend on the processing

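Without the filter on low counts, 174 genes were higher and 143 lower in CD41+ cells, 616 and 246 in CD41- cells, and 178 differed between the responses. DESeq2 gave 150 and 116, 535 and 316, and 35. The fit without robust estimation gave 4 higher and 3 lower in CD41+ cells and kept 7 of the 14 calls; limma voom gave 2 and 6 and kept 8, and called 281 lower in CD41- cells. A fit of only the groups compared gave 0 higher and 0 lower in CD41+ cells by edgeR (1130 at an unadjusted p under 0.05). Leaving out 1 library at a time gave 0 to 39 higher and 0 to 18 lower in CD41+ cells and 143 to 398 higher and 26 to 162 lower in CD41- cells. The cause of these shifts was not tested. Among the genes that the naming rule covers, and over the settings that leave out 1 library, 8 genes crossed 0: Prtn3 ran from -1.36 to 0.13, Csf3r from -1.62 to 0.16, Csf2ra from -1.12 to 0.010, Hk3 from -1.76 to 0.43, Jchain from -8.07 to 2.18, Cebpe from -1.79 to 0.43 and Hdc from -1.16 to 0.92 on the log2 scale. These 7 were positive when control replicate 2 of the CD41+ cells was left out. Ccnf ran from -0.037 to 0.26 and was negative when either control or depleted replicate 1 was left out. Control and depleted libraries come from differently treated mice, so the CD41+ response itself has no pairs; with couples of consecutive titles as a replicate block, 2 genes passed for the difference between the responses against 0 without it. The shallowest depleted library, of 974196 counts, limits the precision for genes of few counts.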

Other observations

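Some genes had no count in 1 of the 2 CD41+ groups, and none of them passed the test. Nr2f2, the gene of a nuclear receptor of venous endothelium, had 0 counts in the 2 controls and 79 in the 3 depleted libraries, at least 21.3-fold higher when 3 counts over the control group are taken as the floor (edgeR, adjusted p = 0.13). Phldb2, with 0 and 43 counts, was at least 11.6-fold higher (adjusted p = 0.15). In the other direction Cr2, the gene of a complement receptor of B cells, had 34 counts in controls and 0 after depletion, at least 14-fold lower (adjusted p = 0.157). Such bounds cover counting error only, not the spread between libraries, and the counts are sums over the libraries of a group. All 3 genes were chosen after their values were seen.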
